A study of Bos taurus with 16 samples.

Results

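The genes described here are 43 components of the transforming growth factor beta (TGF-β), activin and bone morphogenetic protein (BMP) pathways, taken by gene name from 3 RNA-seq tables that list 38959, 37429 and 28303 genes. They comprise 7 ligands of the TGF-β, activin and nodal branch, 6 BMP and GDF ligands, 10 receptors, 7 SMADs, the 4 ID genes and 9 antagonists, corepressors and modifiers. All 43 names were found in each table. The genes were listed by name and not by measured values, although earlier results of these data were known.

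The study examined what inhibition of retinoic acid receptor gamma (RARγ) with the compound LY2955303 (LY) does to bovine embryos and bovine embryonic stem cells (bESCs). The first experiment compared 3 day 8 blastocysts exposed to 10 μM LY from the 2-cell stage (LY10) with 3 blastocysts given the DMSO vehicle. The second compared 2 blastocysts exposed from the 2-cell stage (cell2_LY), 2 exposed from the 16-cell stage (cell16_LY) and 2 vehicle controls (LY_DMSO), with no LY concentration in the labels. The third compared 2 libraries of bESCs grown with LY (bESC_LY) with 2 libraries of the same culture medium without it (bESC_tifx). All samples were labelled wild type and batch 1. Each blastocyst library came from 1 whole embryo, produced by in vitro fertilization of slaughterhouse oocytes and cultured with LIF, FGF2 and IGF1, so that trophectoderm, epiblast and hypoblast were read together. Fewer cells of a type and less RNA per cell therefore cannot be told apart. The bESCs grew on inactivated mouse fibroblasts in a medium with LIF, forskolin and kinase inhibitors, and the labels do not say whether their libraries came from separate cultures, so that p-values there measure only the spread between these libraries.

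In this pathway, a ligand dimer brings type II and type I serine/threonine kinase receptors together, and the activated type I receptor phosphorylates a SMAD. TGF-β, activin and nodal signal mainly through SMAD2 and SMAD3, and BMPs through SMAD1 and SMAD5. Both sets join SMAD4 and enter the nucleus, where the ID genes are well-known BMP targets. SMAD6 and SMAD7 inhibit the pathway, while SKI and SKIL are corepressors that bind SMADs. NODAL and activin maintain pluripotency in several mammalian stem cells, and BMP4 acts on extraembryonic lineages of the mammalian embryo.

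Depth lay between 7905768 and 15137567 reads on genes in the first experiment, between 11336091 and 17343140 in the second and between 29055323 and 31230432 in the bESCs. Markers of trophectoderm, epiblast and hypoblast were read in all blastocyst groups, except that PAG12, HAND1, FGF4, FOXA2 and SOX17 each had no read in at least 1 group, with KRT8 at 1582 to 6493 FPKM (a read level corrected for the length of the gene and the size of the library) in the first experiment. In the bESCs POU5F1 reached 967 to 1117 FPKM. Of 19 trophectoderm markers, IFNT2, IFNT3, PAG2, PAG11, PAG12 and TKDP1 had no read there. In every library 13 of the 19 were read in bESC_tifx and 12 in bESC_LY. Among these, KRT8 was at 60.4 to 209 FPKM and CDX2 at 0.243 to 15.2 FPKM over the bESC libraries. The level of RARG, the target of LY, was at most 0.0487 FPKM in every blastocyst, against 10.5 to 19.5 FPKM in the bESCs. DMSO replicate 3 differed from the other DMSO blastocysts for a part of the genes. The LY10 blastocysts did not overlap DMSO replicates 1 and 2 for 19 of the 43 genes. DMSO replicate 3 lay inside the LY10 range for 11 of these 19 and for 22 of all 43 genes. Both counts include ties at 0, such as NODAL, and were not taken over all genes or for the other libraries. They do not show that DMSO replicate 3 was unusual. The called genes and counts of LY10 against DMSO are also given without DMSO replicate 3, as a description only, since its own values singled it out.

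Most of the pathway's intracellular machinery was read in every blastocyst, whereas several ligands and secreted antagonists were at or near 0. In DMSO blastocysts, BMP5 had no read and 8 of the 43 genes had no read in at least 1 library. In LY10, BMP5 and NODAL had no read. In LY_DMSO this held for BMP5 and NOG, and in cell16_LY for BMP5, GDF15 and NODAL. In cell2_LY every gene had a read in at least 1 library, and 7 had none in some library. A count of 0 allows up to 3 reads, which come to no more than 4.09 normalized counts in the first experiment and 3.50 in the second. The normalized count is the number of reads scaled to the geometric mean library size of its table, and it compares libraries within a table only.

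**Figure D1:**
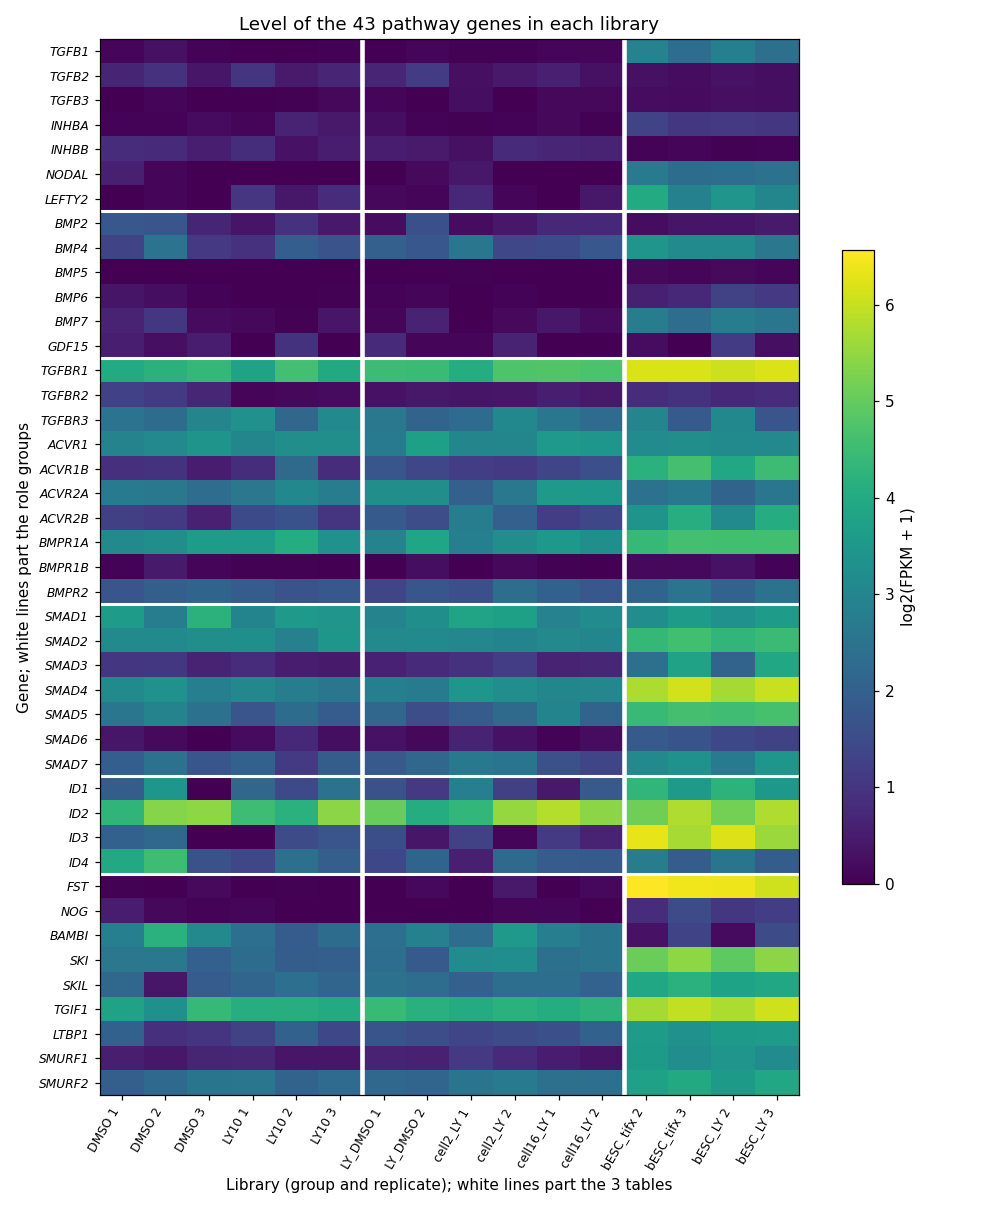
Level of each of the 43 genes in each of the 16 libraries, as log2(FPKM + 1), with genes in rows grouped by role and libraries in columns grouped by experiment. TGFBR1, TGIF1 and ID2 are the brightest rows in the blastocysts, and FST, ID3, SMAD4 and TGFBR1 are among the brightest in the bESCs.

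Compared per gene length, the most abundant receptor in every group was TGFBR1, the type I receptor for TGF-β. Its level was 15.3, 17.5 and 19.6 FPKM in the DMSO blastocysts and 12.7, 23.6 and 14.8 FPKM in LY10. It was 21.8 and 21.1 FPKM in LY_DMSO, 15.9 and 26.0 FPKM in cell2_LY, 26.6 and 25 FPKM in cell16_LY, 72.0 and 72.2 FPKM in bESC_tifx and 66.2 and 73.2 FPKM in bESC_LY. Groups with and without LY overlapped in the first experiment and in the bESCs, and TGFBR1 passed the threshold in none of the 5 comparisons.

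ID2, a helix-loop-helix inhibitor and BMP target, was the ID gene with the highest mean in each blastocyst group. Its level was 18.8, 40.2 and 42.9 FPKM in DMSO and 22.3, 17.4 and 41.9 FPKM in LY10. TGIF1, a homeodomain corepressor of SMADs, had the highest mean of the antagonists and modifiers in the blastocysts, with 12.9, 8.88 and 20.2 FPKM in DMSO and 16.2, 16.2 and 15.3 FPKM in LY10. Both genes overlapped between DMSO and LY10. In the second experiment TGIF1 stood at 20.9 and 17.0 FPKM in LY_DMSO, 15.4 and 17.3 FPKM in cell2_LY and 15.9 and 17.8 FPKM in cell16_LY, with overlap between all 3 groups.

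Of the SMADs, SMAD1 had the highest mean in DMSO, LY10 and cell2_LY, and SMAD2 in LY_DMSO and cell16_LY. SMAD1 was at 11.4, 5.91 and 17.5 FPKM in DMSO and 6.81, 10.5 and 9.80 FPKM in LY10, while SMAD2 was at 7.81, 7.75 and 8.44 FPKM in DMSO and 8.62, 6.23 and 10.2 FPKM in LY10. The SMAD1 values of DMSO enclosed those of LY10, and SMAD2 overlapped as well. In the second experiment SMAD2 was at 7.57 and 7.89 FPKM in LY_DMSO, 7.19 and 6.77 FPKM in cell2_LY and 7.53 and 7.13 FPKM in cell16_LY, a narrow range beside that of SMAD1. BMP4 led the BMP ligands in every group, with 1.54, 4.71 and 1.14 FPKM in DMSO and 0.922, 2.93 and 2.22 FPKM in LY10. It was at 3.07 and 2.45 FPKM in LY_DMSO, 5.0 and 1.61 FPKM in cell2_LY and 1.79 and 2.46 FPKM in cell16_LY, again with overlap. No ligand of the TGF-β, activin and nodal branch had a mean of 1 FPKM in any blastocyst group. INHBB, an activin subunit, led this branch in DMSO with 0.793, 0.717 and 0.460 FPKM. LEFTY2 led it in LY10 with 1.04, 0.342 and 0.771 FPKM, and TGFB2 in LY_DMSO with 0.640 and 1.21 FPKM. INHBB led it in cell2_LY with 0.229 and 0.745 FPKM and in cell16_LY with 0.644 and 0.563 FPKM, where LY_DMSO had 0.447 and 0.388 FPKM of it.

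A gene was called when its p was below 0.05 before adjustment and its log2 fold change exceeded 1 in size, which is the threshold of the study. The fits with limma covered all genes whose normalized count averaged 10 or more, on log2(normalized count + 1), a scale that understates the change of low genes. Of the 43 genes, 32 reached this level in the first experiment and 33 in the second.

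In LY10 blastocysts no gene of the 32 tested was called higher than in DMSO, and 3 were called lower. These were TGFBR2, BMPR1B and BAMBI, all of them transmembrane proteins of the receptor family. Over all genes tested, 6.2% were called higher and 8.51% lower in this comparison, so that the 3 lower genes (9.375% of those tested) lay near the background. Quantile normalization turned the balance over all genes to 7.56% higher and 6.18% lower, with 1 pathway gene higher and 3 lower. Without DMSO replicate 3, 9.46% of all genes were called higher and 14.7% lower, and 0 and 8 of the 36 pathway genes then tested. Among these 8, BMP6 and TGFB1 reached the level for testing through DMSO replicates 1 and 2 alone. The 32 genes had a median log2 fold change of -0.16, against -0.05 over all genes. LY10 and DMSO did not overlap for 4 of the 32 genes, all lower in LY10. Over the 14249 genes tested, 1961 lay apart higher and 2049 lower. After Benjamini-Hochberg adjustment over all genes, no pathway gene stayed under 0.05 by limma (4 had an unadjusted p under 0.05), where 0.014% of all genes did. With voom weights on the reads recovered from the FPKM values the count was also 0 (3 at an unadjusted p under 0.05).

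TGFBR2 encodes the type II receptor that binds TGF-β and lies on chromosome 22 from 5091580 to 5183754. Its normalized count was 67.5, 55.7 and 29.5 in the DMSO blastocysts and 2.73, 4.69 and 6.47 in LY10, which stood for 87, 56 and 27 reads against 2, 7 and 5 reads. Every LY10 blastocyst lay below every DMSO blastocyst. The gene reached the level for testing through the DMSO group alone, so that its fold change and p are a description only. The log2 fold change was -3.18 (standard error 0.68, unadjusted p = 0.0013, adjusted p = 0.0783 from limma, n = 3 per group). It was -3.53 without DMSO replicate 3 and -0.89 on log2(FPKM + 1), where it did not exceed 1 in size.

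BMPR1B, a type I BMP receptor on chromosome 6 from 29371365 to 29820421, had normalized counts of 29.5, 221 and 49.2 in DMSO and 10.9, 16.8 and 2.59 in LY10. The groups did not overlap, although DMSO replicate 2 lay far above the other DMSO blastocysts. The log2 fold change was -2.94 (standard error 0.90, unadjusted p = 0.0102, adjusted p = 0.114 from limma). It was -3.17 without DMSO replicate 3, and the call was lost with voom weights, where the unadjusted p from limma was 0.0877. BAMBI, a pseudoreceptor that lacks the kinase domain and dampens signaling, lies on chromosome 13 from 36021690 to 36028577. Its normalized count was 174, 487 and 210 in DMSO and 120, 77.1 and 111 in LY10. The groups did not overlap, and the log2 fold change was -1.36 (standard error 0.43, unadjusted p = 0.0115, adjusted p = 0.119 from limma, n = 3). Without DMSO replicate 2, the highest library, it was -0.91 and no longer called, and without DMSO replicate 3 it was -1.52.

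Some cell type markers also differed between DMSO and LY10. The summed level of 14 fibroblast markers was 24.8 to 107 FPKM in DMSO, with 8 of the 14 read in every library, and 6.20 to 12 FPKM in LY10, with 5 read in every library, and 0 of the 6 tested were called higher and 2 lower. The upper end of the DMSO range was DMSO replicate 3, while DMSO replicates 1 and 2 were at 24.8 and 25.2 FPKM. COL1A1, a defining marker, was at 0.108 to 0.507 FPKM in DMSO and 0.0539 to 0.159 FPKM in LY10. FAP and MEOX1 had no read in DMSO and TWIST2 had none in LY10. The summed level of 15 cumulus and granulosa markers was 23.8 to 62.3 FPKM in DMSO and 11.1 to 28.5 FPKM in LY10, with INHA at 0 in DMSO. The trophectoderm markers (19 genes) summed to 2972 to 7773 FPKM in DMSO and 4223 to 10440 FPKM in LY10, the 13 epiblast markers found to 1155 to 1336 and 1276 to 1540 FPKM, and the 16 hypoblast markers to 195 to 229 and 113 to 208 FPKM. Of these lists the hypoblast markers had the most calls, with 3 of 14 tested higher and 4 lower in LY10. PDGFRA, a hypoblast marker, was at 0.526 to 4.26 FPKM in DMSO and 10.6 to 47.1 FPKM in LY10, without overlap. GATA6, another one, went the other way, at 64.8 to 107 FPKM in DMSO and 46.2 to 57.3 FPKM in LY10. Of the 14 hypoblast markers tested, 5 had a positive and 9 a negative log2 fold change, with a median of -0.88. Of the trophectoderm markers 0 of 16 were called higher and 1 lower, of the epiblast markers 1 of 12 higher and 1 lower, and of the cumulus and granulosa markers 0 of 6 higher and 1 lower. The part of these cells in the receptor results was not tested.

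The other receptors gave log2 fold changes between -0.20 for BMPR2 and 0.93 for ACVR1B in LY10 against DMSO, and none was called. Of the 6 SMADs tested, SMAD2 had a log2 fold change of 0.03 and the other 5 were negative, with a median of -0.44 over the 6. SMAD1 changed sign without DMSO replicate 3, from -0.25 to 0.11. SMAD5, which carries BMP signals, had normalized counts of 364, 488 and 331 in DMSO and 172, 293 and 203 in LY10. All LY10 values lay below the DMSO values, with a log2 fold change of -0.84 (standard error 0.30, unadjusted p = 0.0219, adjusted p = 0.154 from limma) that stayed short of the fold threshold. It was -0.95 without DMSO replicate 3, and -1.05 and called without LY10 replicate 2.

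Among the BMP ligands and ID genes, none was called in LY10 with all libraries, and BMP2 and ID4 were called in some other fits. BMP2 had normalized counts of 67.5, 63.7 and 16.4 in DMSO and 8.18, 24.8 and 10.4 in LY10. ID4 had 382, 577 and 53.6 in DMSO and 42.3, 114 and 77.7 in LY10. In both genes DMSO replicate 3 lay among the LY10 blastocysts, and the log2 fold changes of -1.61 and -1.65 missed the threshold (adjusted p = 0.234 and 0.262 from limma). With sample weights they were -2.04 and -2.09 and both were called. ID4 was also called without a filter on low values (-1.65, unadjusted p = 0.0452 from limma), and BMP2 without LY10 replicate 2 (-2.06). Without DMSO replicate 3 the values were -2.26 and -2.69, and the genes called lower numbered 8 in place of 3, or 22.2% of those tested against 14.7% of all genes in that fit. The 5 genes added were BMP2, BMP6, ID4, SMAD3 and TGFB1. Of these, BMP6 and TGFB1 were not tested with all libraries and reached the level for testing through DMSO replicates 1 and 2 alone. Their normalized counts there were 18.9 to 30.3 for BMP6 and 11.6 to 32.8 for TGFB1, against at most 2.59 and 5.18 in LY10. Their calls and the share of 22.2% are therefore a description only. ID1 changed sign without DMSO replicate 3, from 1.15 to -0.79, and was called in neither fit.

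A few ligands lay below the level for testing with all libraries, and their reads are given as a description. BMP6 had 39, 19 and 4 reads in DMSO and 0, 0 and 2 in LY10. TGFB1 had 15, 33 and 5 reads in DMSO and 1, 3 and 4 in LY10. LEFTY2, an inhibitor of NODAL and itself a nodal target, had 0, 1 and 0 reads in DMSO and 9, 6 and 7 in LY10. The groups did not overlap for these 3 ligands, with LY10 lower for BMP6 and TGFB1 and higher for LEFTY2. NODAL had 7, 1 and 0 reads in DMSO and 0 in each LY10 blastocyst, so that NODAL reads were not higher in LY10 as those of LEFTY2 were.

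**Figure D2:**
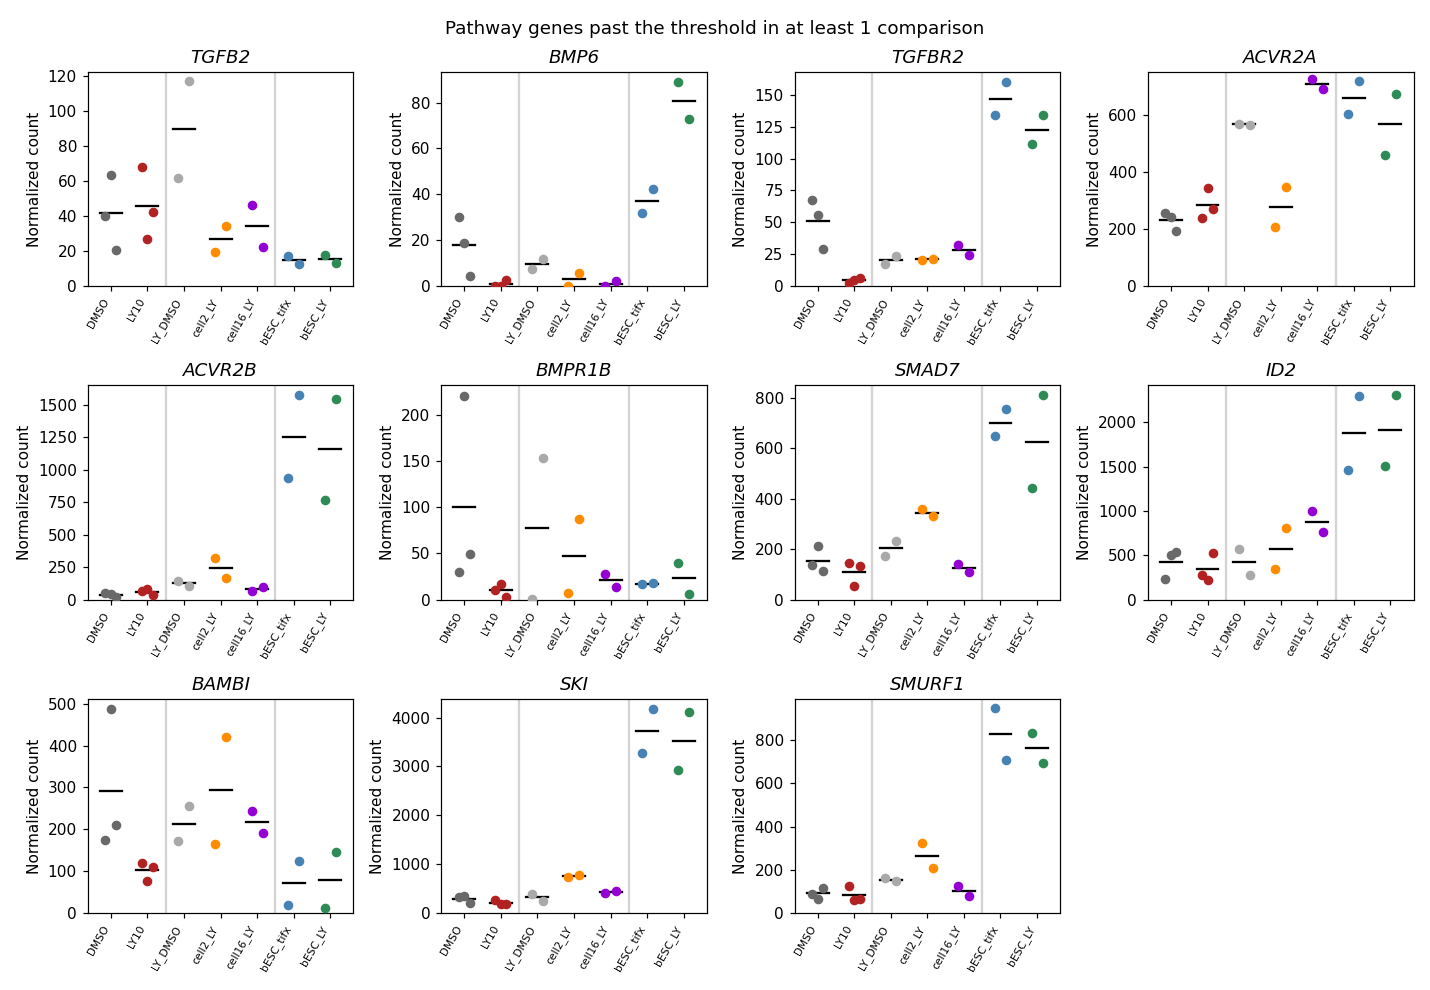
Normalized count in each library of the 11 genes past the threshold in at least 1 comparison, with a black line at each group mean and gray lines between the 3 tables, whose scales differ. TGFBR2 lies below 7 in all LY10 blastocysts and at 29.5 to 67.5 in DMSO, and SKI is highest among the blastocysts in cell2_LY.

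In the second experiment the blastocysts exposed from the 2-cell stage showed none of the calls of LY10. Of 33 genes tested in cell2_LY against LY_DMSO, SKI was called higher and ACVR2A and TGFB2 were called lower. The background was 8.71% of all genes higher and 8.34% lower, and the shares among the pathway genes were 3.03% and 6.06%. The median log2 fold change was 0.14, against 0.00 over all genes. With 2 libraries per group, ranges without overlap were common. Of the 14529 genes tested, 3904 lay apart higher and 3905 lower, beside 8 and 5 of the 33. By limma 0 of the 33 genes passed adjustment at 0.05 (5 had an unadjusted p under 0.05), where 0.0138% of all genes did, and by voom the count was also 0 (6 unadjusted).

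SKI, a corepressor of SMAD-driven transcription on chromosome 16 from 50515079 to 50573153, had normalized counts of 750 and 781 in cell2_LY against 393 and 252 in LY_DMSO. Both treated blastocysts lay above both controls. The log2 fold change was 1.28 (standard error 0.31, unadjusted p = 0.0030, adjusted p = 0.0814 from limma, n = 2 per group), and it was 0.96 without LY_DMSO replicate 2, which ended the call. In the blastocysts treated from the 16-cell stage SKI stood at 412 and 453, between the other 2 groups.

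ACVR2A, a type II receptor for activin and nodal, lies on chromosome 2 from 48279645 to 48374634. Its normalized count was 206 and 348 in cell2_LY, 569 and 565 in LY_DMSO and 724 and 692 in cell16_LY. The cell2_LY blastocysts were the lowest of the 3 groups, and the log2 fold change against LY_DMSO was -1.08 (standard error 0.32, unadjusted p = 0.0097, adjusted p = 0.107 from limma, n = 2). It was -0.70 without cell2_LY replicate 1 and -0.85 when the reads on genes served as library size, and was not called in either case.

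TGFB2, a TGF-β ligand on chromosome 16 from 21807973 to 21902408, had normalized counts of 19.7 and 34.5 in cell2_LY and 62.1 and 117 in LY_DMSO, or 18 and 35 reads against 67 and 127. The groups did not overlap, with a log2 fold change of -1.67 (standard error 0.66, unadjusted p = 0.0338, adjusted p = 0.169 from limma, n = 2). Leaving out LY_DMSO replicate 2 gave -1.22, leaving out cell2_LY replicate 1 gave -1.28 and the reads on genes as library size gave -1.45, none of them called. In cell16_LY, TGFB2 stood at 46.5 and 22.2, also below both controls, with a log2 fold change of -1.38 that missed the threshold.

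Most SMADs had higher means in cell2_LY than in LY_DMSO, but none was called with the authors' library size. Of the 7 SMADs, 6 had a positive log2 fold change and SMAD2 a negative one, with a median of 0.74, against 0.00 over all genes. SMAD1 had normalized counts of 778 and 724 in cell2_LY and 392 and 515 in LY_DMSO, a log2 fold change of 0.74 (unadjusted p = 0.0325, adjusted p = 0.168 from limma). SMAD4, the common partner, had 1378 and 1139 against 853 and 754, a log2 fold change of 0.64 (unadjusted p = 0.0344, adjusted p = 0.170 from limma). SMAD7 had 358 and 330 against 172 and 234 and a log2 fold change of 0.77 (unadjusted p = 0.0582). The treated and control blastocysts did not overlap for these 3 genes, as for many of all genes in this comparison. The choice of library size touched this comparison, since the authors' size for cell2_LY replicate 1 was 1.23 times its reads on genes. Dividing by the reads on genes shifted the median of all genes by 0.24, and relative to that shift the log2 fold change of SKI (1.51 there) moved little. SMAD3 (1.02) and SMAD7 (1.01) were called there, with unadjusted p of 0.0371 and 0.0269 from limma before the shift was taken off. With that library size 3 pathway genes were called higher and 0 lower, where the background was 12.7% higher and 4.63% lower.

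Markers of the trophectoderm also moved in cell2_LY. Their summed level was 5930 to 8579 FPKM in cell2_LY and 4355 to 5398 FPKM in LY_DMSO, and 7 of the 17 tested were called higher and 0 lower. The epiblast markers summed to 726 to 914 FPKM in cell2_LY and 1273 to 1319 FPKM in LY_DMSO, with 0 of 12 called higher and 3 lower. The fibroblast markers summed to 15.6 to 25.6 FPKM and 12.1 to 18.1 FPKM, with FAP, MEOX1, POSTN and TWIST2 at 0 in both groups and 0 of 6 called. The hypoblast markers summed to 198 to 367 FPKM and 181 to 225 FPKM, and the cumulus and granulosa markers to 24.4 to 85.9 FPKM and 12.4 to 39.3 FPKM, with FOXL2 and INHA at 0 in both groups. Of 14 hypoblast markers 0 were called higher and 1 lower, and of 5 cumulus and granulosa markers 1 was called higher and 0 lower. The part of the cell makeup in the SKI, ACVR2A and TGFB2 results was not tested.

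Blastocysts exposed from the 16-cell stage had the fewest called genes of the pathway among the embryo comparisons, with 1 of 33. In cell16_LY against LY_DMSO, ID2 was called higher and no gene of the 33 was called lower, where the background was 3.25% higher and 1.97% lower. The same LY_DMSO blastocysts served both comparisons. The groups did not overlap for 3039 genes with cell16_LY higher and 3198 with it lower, of 14529 tested, beside 10 and 5 of the 33. The median log2 fold change was 0.12 against -0.01 over all genes, and 0% of all genes passed adjustment by limma (1 of the 33 had an unadjusted p under 0.05, and both counts were the same by voom).

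ID2 lies on chromosome 11 from 88604892 to 88607196. Its normalized count was 1002 and 758 in cell16_LY, 573 and 284 in LY_DMSO and 347 and 806 in cell2_LY. Both cell16_LY blastocysts lay above both controls, while the cell2_LY values overlapped the range of each. The log2 fold change against LY_DMSO was 1.11 (standard error 0.47, unadjusted p = 0.0449, adjusted p = 0.646 from limma, n = 2). It was 0.61 without LY_DMSO replicate 2, 0.91 without cell16_LY replicate 1 and 1.31 without cell16_LY replicate 2, and the call was lost each time. The other ID genes were not called, with log2 fold changes of -0.57 for ID1, 0.00 for ID3 and 0.17 for ID4. In cell16_LY the trophectoderm markers summed to 6291 to 6905 FPKM, with 5 of 17 called higher and 0 lower, and the epiblast markers to 795 to 963 FPKM, with 0 of 12 called higher and 1 lower. Hypoblast markers summed to 242 to 282 FPKM, cumulus and granulosa markers to 35.1 to 113 FPKM and fibroblast markers to 10.1 to 11.8 FPKM, with 1 of 14, 1 of 5 and 0 of 6 called higher and 0 lower in any of the 3 lists. The part of these cells in the ID2 result was not tested.

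Between the 2 starting stages, 1 gene was called higher and 3 lower in cell16_LY than in cell2_LY, of 33 tested. The background was 5.58% higher and 5.77% lower, and the shares of the pathway genes were 3.03% and 9.09%. With the reads on genes as library size the background was 2.89% higher and 8.66% lower, and 1 pathway gene was called higher and 6 lower. By limma 0% of all genes passed adjustment, and 6 pathway genes had an unadjusted p under 0.05 by both limma and voom. The stages did not overlap for 4094 genes with cell16_LY higher and 3828 with it lower, of 14529 tested, beside 8 and 9 of the 33. The higher gene was ACVR2A, with the values given above and a log2 fold change of 1.40 (standard error 0.32, unadjusted p = 0.0023, adjusted p = 0.191 from limma, n = 2). These blastocysts also enter the comparisons with LY_DMSO, so that the low ACVR2A counts of cell2_LY appear in both. Of the 17 trophectoderm markers tested, 4 were called higher and 4 lower in cell16_LY than in cell2_LY, and the part of this in the receptor and SMAD results was not tested.

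The lower genes were an inhibitory SMAD, a ubiquitin ligase and an activin receptor. SMAD7, on chromosome 24 from 48598698 to 48629007, had normalized counts of 141 and 108 in cell16_LY, 358 and 330 in cell2_LY and 172 and 234 in LY_DMSO. Its log2 fold change between the stages was -1.47 (standard error 0.35, unadjusted p = 0.0028, adjusted p = 0.191 from limma). The controls lay between the 2 treated groups, and no group overlapped another. SMURF1, which marks SMADs and receptors for degradation, lies on chromosome 25 from 37171018 to 37262428 and had 124 and 80.5 in cell16_LY and 323 and 207 in cell2_LY. Its log2 fold change was -1.37 (standard error 0.41, unadjusted p = 0.0094, adjusted p = 0.195 from limma).

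ACVR2B, the second activin type II receptor, on chromosome 22 from 11825975 to 11855764, had normalized counts of 70.7 and 94.5 in cell16_LY, 320 and 169 in cell2_LY and 145 and 106 in LY_DMSO. Its log2 fold change between the stages was -1.50 (standard error 0.45, unadjusted p = 0.0098, adjusted p = 0.195 from limma). The related receptors ACVR2A and ACVR2B thus stood in opposite order in the treated groups, with ACVR2A lower and ACVR2B higher in cell2_LY than in cell16_LY. The SMURF1 and ACVR2B calls were lost without cell2_LY replicate 1 (-1.05 and -1.04), SMURF1 also without cell16_LY replicate 2 (-1.06) and ACVR2B also without cell16_LY replicate 1 (-1.29).

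**Figure D3:**
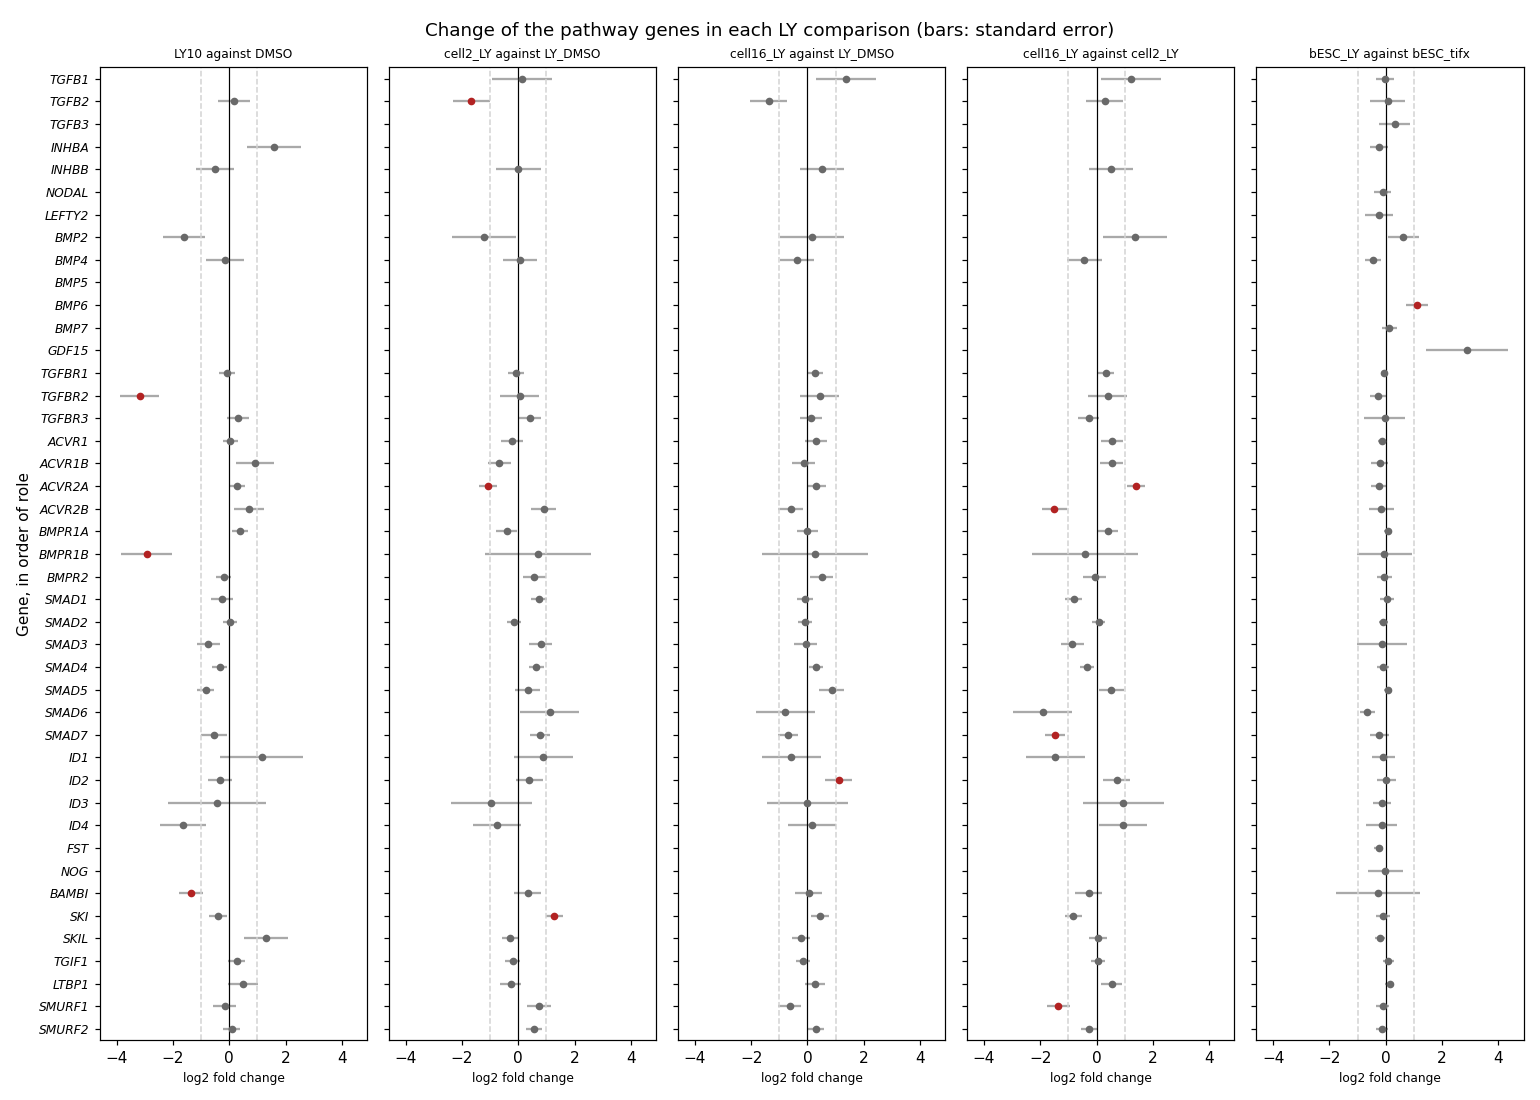
Log2 fold change of each tested gene in the 5 LY comparisons, with bars for the standard error, dashed lines at -1 and 1, and red points for genes past the threshold. TGFBR2 and BMPR1B lie near -3 in LY10 against DMSO alone, and the bESC panel holds BMP6 as its only red point.

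Both blastocyst experiments started LY at the 2-cell stage, and the difference of their LY effects was tested over all 12 blastocysts, with each effect taken within its own table. Of 34 genes tested, the effect in LY10 was higher for 1 and lower for 4 at the threshold. The background was 12.6% higher and 9.66% lower (8.82% and 13.1% with the reads on genes as library size, where 1 pathway gene was higher and 9 lower), and 7.02% of all genes had an adjusted p under 0.05, against 1 of the 34 genes (2.94%). That gene was SKI, with log2 fold changes of -0.41 in LY10 against DMSO and 1.28 in cell2_LY against LY_DMSO. The difference was -1.69 (standard error 0.45, adjusted p = 0.0439 from limma), and its adjusted p ranged from 0.0133 to 0.158 over the alternative settings. The normalized count of SKI was 337, 342 and 199 in DMSO and 266, 186 and 196 in LY10, with overlap.

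The other differences at the threshold did not pass adjustment. TGFBR2 changed by -3.18 in the first experiment and 0.04 in the second, a difference of -3.22 (standard error 0.90, adjusted p = 0.0502 from limma). The change in the first experiment rested on 14 reads over the LY10 blastocysts, so that this difference is a description only. The level of TGFBR2 was 0.618 to 1.41 FPKM in DMSO and 0.0570 to 0.135 FPKM in LY10, but 0.257 to 0.351 FPKM in LY_DMSO and 0.303 to 0.317 FPKM in cell2_LY. The controls of the second experiment thus lay below those of the first, and the LY10 blastocysts below both. ACVR2A differed by 1.37 (adjusted p = 0.0663), SMAD3 by -1.53 (adjusted p = 0.144) and BAMBI by -1.69 (adjusted p = 0.157 from limma).

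Among the SMADs the median difference was -0.99, against -0.09 over all genes. SMAD1, SMAD3, SMAD4, SMAD5 and SMAD7 had negative log2 fold changes in LY10 and positive ones in cell2_LY, SMAD1 in LY10 only with DMSO replicate 3 included. The control embryos, the tables and possibly the LY concentration differ between the experiments, and these cannot be told apart.

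**Figure D4:**
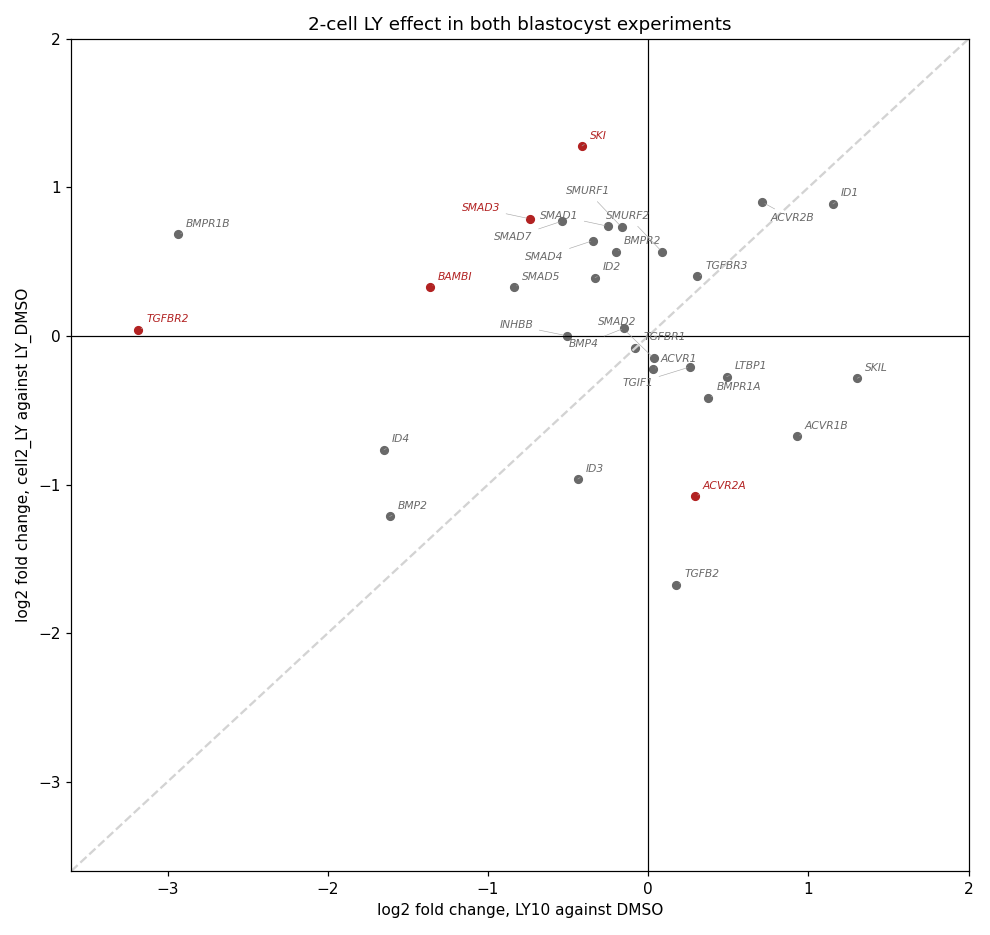
Log2 fold change of 31 genes in cell2_LY against LY_DMSO (vertical) and in LY10 against DMSO (horizontal), both after LY from the 2-cell stage. Red points passed the threshold for the difference between experiments, and the dashed line marks equal change. SKI lies at -0.41 and 1.28, and TGFBR2 at -3.18 and 0.04.

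More of the pathway genes were read in every library in the bESCs, whose libraries were also deeper than those of the blastocysts. Every one of the 43 genes had reads in both bESC groups, as in cell2_LY. Genes without a read in some library numbered 1 in bESC_tifx and 0 in bESC_LY, against 5 to 8 in the blastocyst groups. In the bESCs 41 genes were tested, all but INHBB and BMP5. The control blastocysts and the untreated bESCs were compared without a test, since they came from separate tables with their own gene models and protocols. The ranges lay apart on both FPKM and RPM (reads scaled to library size only, with no part for gene length) for 26 genes, with 23 higher and 3 lower in bESC_tifx, when a count of 0 was taken as the 3 reads it allows. The share of all genes lying apart was not counted, so that these counts cannot be read as particular to the pathway. Both scales were used because the gene length differed by more than 1.5 times between the tables for 21 of the 43 genes.

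Of the 7 ligands of the TGF-β, activin and nodal branch, 5 were higher on both scales, namely TGFB1, TGFB3, INHBA, NODAL and LEFTY2, and of the 6 BMP and GDF ligands 2 were, namely BMP4 and BMP7. BMP5 had 8 and 10 reads in bESC_tifx (0.251 to 0.337 RPM) and none in the control blastocysts, where a count of 0 allows up to 0.308 RPM, so that its ranges were not apart. LEFTY2 was at 7.09 to 16.7 RPM in bESC_tifx and 0 to 0.12 in the 5 control blastocysts, and TGFB1 was at 12.5 to 19.2 against 0.18 to 3.08. FST, the follistatin that binds and neutralizes activin, was at 223 to 246 RPM against 0 to 0.31. Of the ID genes, ID3 stood out with 47.9 to 74.0 RPM against 0 to 3.55. The genes with higher ranges in the control blastocysts were TGFB2, INHBB and BAMBI. SMAD2 had higher ranges in the bESCs by FPKM and in the blastocysts by RPM. Fibroblast markers summed to 300 to 331 FPKM in the bESCs and 12.1 to 107 FPKM in the control blastocysts, on FPKM alone. COL1A1 and THY1 were higher in bESC_tifx, as the sum was. COL1A2 went the other way, at 3.03 to 3.61 FPKM in bESC_tifx, 4.94 to 12.9 FPKM in DMSO and 9.77 to 11.4 FPKM in LY_DMSO. Reads from the feeder cells were not separated here.

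**Figure D5:**
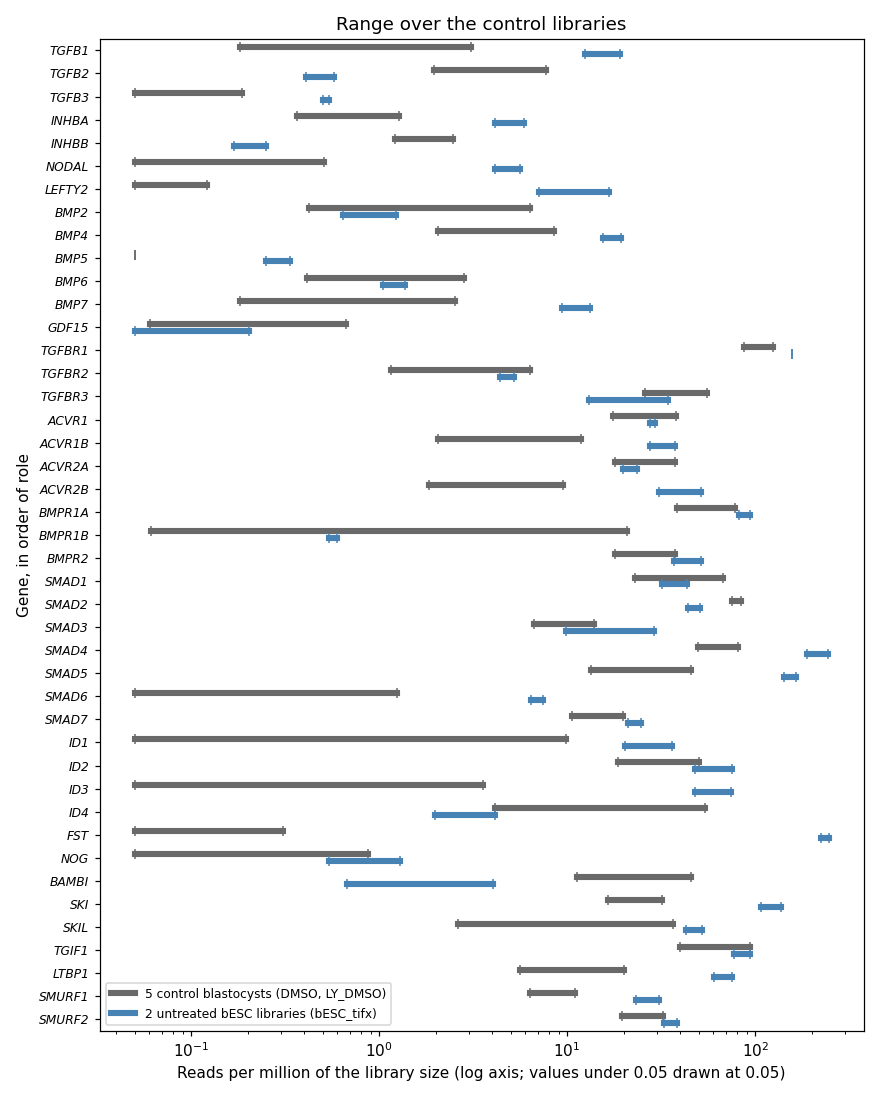
Range in RPM, on a log axis, of each of the 43 genes over the 5 control blastocysts (gray) and the 2 untreated bESC libraries (blue). Values under 0.05 are drawn at 0.05. FST lies at 223 to 246 in the bESCs and at most 0.31 in the blastocysts, while BAMBI and TGFB2 lie higher in the blastocysts.

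Almost none of this set passed the threshold after LY in the bESCs, in a fit that did not pair libraries by replicate number. Of 41 genes tested, 1 was called higher and none lower in bESC_LY, where 0.0375% of all genes were called higher and 0.0375% lower, that is 6 genes each of 16012. The median log2 fold change of the 41 genes was -0.09, against -0.01 over all genes, and 39 of them lay between -0.66 and 0.63. The groups did not overlap for 1093 genes with bESC_LY higher and 1178 with it lower, of 16012 tested, beside 3 and 4 of the 41. By limma 0% of all genes passed adjustment and 1 pathway gene had an unadjusted p under 0.05, with the same counts by voom for the pathway genes.

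The called gene was BMP6, a BMP ligand on chromosome 23 from 47502338 to 47663392. Its normalized count was 31.9 and 42.2 in bESC_tifx and 88.9 and 72.7 in bESC_LY, or 31 and 44 reads against 84 and 76. Both treated libraries lay above both controls. The log2 fold change was 1.11 (standard error 0.40, unadjusted p = 0.0437, adjusted p = 1.00 from limma, n = 2), and the call was lost when any 1 of the 4 libraries was left out (0.92 to 1.31). GDF15, a stress-induced member of the ligand family, had 6 and 0 reads in bESC_tifx and 42 and 8 in bESC_LY. It reached the level for testing through bESC_LY alone and was not called in this fit. With the replicate number as a block 2 of the 41 genes were called, BMP6 and GDF15, beside 0.912% of all genes.

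None of the most abundant genes of each role was called in the bESCs. FST had normalized counts of 7528 and 6812 in bESC_tifx and 6672 and 5439 in bESC_LY, both lower than the controls, with a log2 fold change of -0.25 and a standard error of 0.16 that was not called. ID3 had 2262 and 1464 against 2076 and 1337, and SMAD4 had 5787 and 7472 against 5451 and 6971. LEFTY2 had 509 and 217 against 329 and 240, and BMP4 had 590 and 472 against 478 and 311. In these 4 genes the groups overlapped, and replicate 2 and replicate 3 of the same treatment differed more than the treatments did for ID3, SMAD4 and LEFTY2. SMAD6, an inhibitory SMAD, had 227 and 196 against 145 and 122, a log2 fold change of -0.66 (standard error 0.27, unadjusted p = 0.0663 by limma) without overlap.

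A further 80 genes of the pathway, listed from general knowledge, give the surroundings of the 43. In LY10 against DMSO, 1 of 47 tested was called higher and 7 lower, that is 2.13% and 14.9%, beside 6.2% and 8.51% of all genes. TAGLN, a smooth muscle actin-binding protein induced by TGF-β, had 139, 143 and 128 reads in DMSO and 0, 2 and 1 in LY10, and reached the level for testing through DMSO alone. FBN1, a matrix protein that stores latent TGF-β, had a log2 fold change of -1.44, and CDKN1A, a cell cycle inhibitor, of -2.01.

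In cell2_LY against LY_DMSO, 6 of 50 were called higher (12%) and 2 lower (4%), beside 8.71% and 8.34% of all genes, among them GATA2 (1.99), the proprotein convertase FURIN (2.27) and CDKN1A (1.64), all higher. GATA2, a transcription factor, is also 1 of the 19 trophectoderm markers above. In cell16_LY against LY_DMSO, 2 of 50 were called higher (4%) and 1 lower (2%), beside 3.25% and 1.97% of all genes. Among them were the follistatin-like FSTL3 (1.65) and the corepressor TGIF2 (-1.41). Between the stages 1 of 50 was called higher (2%) and 5 lower (10%) in cell16_LY, beside 5.58% and 5.77% of all genes, among them GATA2 (-1.94) and FURIN (-1.89), both lower. Of 65 tested, 0 were called in the bESCs by limma (0 at an unadjusted p under 0.05), beside 0.0375% of all genes in each direction. The difference between experiments was called higher for 3 (6%) and lower for 11 (22%) of 50, beside 12.6% and 9.66% of all genes. The 3 with the smallest p were TAGLN, CDKN1A (-3.65) and GATA2 (-2.37), where the LY10 effect was the lower one. For TAGLN no size of the difference is given, since it had 0 and 27 reads in LY_DMSO beside its near-zero counts in LY10, and 159 and 55 in cell2_LY.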

How the data were processed

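RNA-seq libraries of 12 blastocysts (SMART-seq, 1 embryo each) and 4 bESC libraries were analysed from 3 tables. Per the labels and methods, the authors trimmed reads with fastp, aligned them with HISAT2 2.0.5 (the methods also name STAR), counted them with featureCounts 1.5.0-p3 and compared groups with DESeq2 1.20.0. The submitters' processing notes also name StringTie 1.3.3b. The deposited values are called normalized counts, but they are FPKM as the authors computed them. The fold changes and p-values of the authors' own comparisons, which the tables also hold, were not used. FPKM multiplied by gene length fell on whole reads for 100% of values (within 0.02 reads), which gave reads and the library size behind each value. Gene positions equalled those of RefSeq on ARS-UCD2.0 for 35799 of 36219 matched genes (98.8%).

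Each read count was scaled from this size to the geometric mean size of its table. Levels averaging 10 or more were fitted with limma 3.58.1 (R 4.3.3) using lmFit and eBayes with a trend on log2(normalized count + 1), without covariates. All 6 libraries of the second experiment shared 1 fit. Adjustment was by Benjamini-Hochberg over all genes tested. As alternatives, the pseudocount was 0.5 or 5, the filter was dropped or raised to a mean of 50, and the fit was repeated on log2(FPKM + 1) for genes averaging 0.5 FPKM or more, after quantile normalization, with sample weights, with voom weights, with the reads on genes as library size, with a replicate block and without each library. The fit was tested on simulated data. Python 3.11.15 with numpy 2.4.6, pandas 2.3.3 and matplotlib 3.10.9 drew the figures and summaries. Limits set by 3 reads cover counting error only, because the libraries carry no molecular identifiers.

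The genes, lists and tests were chosen with earlier results of these data known. Values in every library were given for genes called in at least 1 comparison and for the gene with the highest mean FPKM of each role; genes outside the 43 were named if they had 1 of the 3 smallest p among called genes of the other pathway list. Other genes were named after their values were seen: SMAD5, BMP2, ID4, TGFB1, LEFTY2 and NODAL in LY10, SMAD1, SMAD4 and SMAD7 in cell2_LY, and GDF15, BMP5 and SMAD6 in the bESCs. The markers PDGFRA, GATA6, CDX2 and COL1A2 were also named in this way. The values of 1 gene of the other pathway list are not reported here. Sequences were not analysed here.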

Additional observations from a re-analysis of the deposited data

Results flagged for a closer look

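The effect of LY given from the 2-cell stage differed between the blastocyst experiments for SKI, by -1.69 on the log2 scale in the limma test of the difference itself (LY10 effect minus cell2_LY effect, adjusted p = 0.0439, n = 3 and 2 blastocysts per group). SKI was lower in the mean of LY10 than of DMSO, with overlap, and higher in both cell2_LY blastocysts than in both LY_DMSO blastocysts. The labels give no LY concentration for cell2_LY, and experiment, controls and concentration cannot be told apart here. Over all genes tested, 7.02% passed adjustment for this difference.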

How the results depend on the processing

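With 2 or 3 libraries per group, counts of called genes depended on single libraries. With 1 library left out at a time, they ranged from 2 to 8 in LY10 against DMSO (3 with all libraries, 8 without DMSO replicate 3 and 5 without DMSO replicate 1 or LY10 replicate 2), from 2 to 5 in cell2_LY against LY_DMSO (3, and 5 without cell2_LY replicate 2) and from 0 to 2 in cell16_LY against LY_DMSO (1, with 0 without LY_DMSO replicate 2 or cell16_LY replicate 1 and 2 without LY_DMSO replicate 1). They ranged from 3 to 6 between the stages (4), from 0 to 1 in the bESCs (1) and from 4 to 9 for the difference between experiments (5, with 9 without DMSO replicate 3 and 8 without LY10 replicate 1). The share of all genes called in the same fits moved too, from 9.64% to 24.2% in LY10 against DMSO (14.7% with all libraries, 24.2% without DMSO replicate 3), from 11% to 23.4% in cell2_LY and from 2.4% to 9.33% in cell16_LY against LY_DMSO, from 5.6% to 20% between the stages, from 0.181% to 0.363% in the bESCs and from 17.4% to 27.0% for the difference. Where a group kept 1 library, it was assumed to vary like the others.

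On log2(FPKM + 1) the counts were 1 in LY10 against DMSO, 1 in cell2_LY and 0 in cell16_LY against LY_DMSO, 0 in the bESCs and 3 for the difference. The shares of all genes called there were 10.5%, 12.3%, 3.44%, 0.146% and 20.4% in the same order. Without a filter the counts were 6 in LY10 against DMSO (14.3%, against 11.3% of all genes) and 0 in the bESCs (against 0.754%). A mean of 50 also gave 0 in the bESCs (against 0.0149%). Sample weights gave 5 in LY10 against DMSO (15.6% of those tested, against 19.8% of all genes), and quantile normalization gave 0 in cell16_LY against LY_DMSO (against 5.13%). Reads on genes as library size gave 7 between the stages (21.2%, against 11.6% of all genes) and 10 for the difference (29.4%, against 21.9%). There the median of all genes shifted to -0.18 and -0.33. The causes of these moves were not tested.

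Replicate numbers were shared between groups, but the labels do not say that they pair samples. Deviations of same-numbered blastocysts correlated at -0.23 to 0.17, and those of the bESCs at 0.79 over 2 pairs. With the replicate number as a block the counts were 4 in LY10 against DMSO (with ID4 added), 3 in cell2_LY and 1 in cell16_LY against LY_DMSO, 4 between the stages, 2 in the bESCs (BMP6 and GDF15, where all genes called rose from 12 to 146 of 16012) and 6 for the difference. The shares of all genes called with the block were 14.5%, 17.1%, 5.44%, 11.2%, 0.912% and 22% in the same order. Of 278 alternative values for called genes, 234 kept the call, 44 kept the direction only and 0 reversed. Genes with few reads, such as NODAL, LEFTY2 and BMP6 in blastocysts, were below the level for testing.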
